A study of Homo sapiens with 29 samples.

Results

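The question was where CC-115 and enzalutamide (Enza), given together to C4-2 cells, moved RNA levels by more or less than the sum of their separate effects. Of the 29 libraries of the study, 12 entered this contrast, and they fell into 4 groups of 3: CC-115+Enza, CC-115, Enza and Ctrl. C4-2 is a human prostate cancer line derived from LNCaP that grows without added androgen, and it was kept here in medium that contained hormones. Each compound was used at 1 µM for 24 h, and the labels do not say what the Ctrl cells received. For each gene the interaction was the log2 change from adding CC-115 to Enza, less the log2 change from adding CC-115 to untreated cells, so that 0 is additivity on the log2 scale (fold changes that multiply). The same value is obtained as the Enza effect in the presence of CC-115 less the Enza effect in its absence. The CC-223 and NU7441 libraries of the same line, each alone and with Enza at the same dose and time, served to estimate the spread and for 2 direct tests of whether the interaction differed between inhibitors. The labels do not state that libraries of a group came from separate cultures, so the p-values measure the spread between these libraries, which may be technical.

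Enzalutamide is an antiandrogen that keeps androgen signalling from driving its target genes. CC-115 inhibits 2 kinases of the same family, DNA-dependent protein kinase (DNA-PK, whose catalytic subunit is encoded by PRKDC) and the mTOR kinase, which couples growth signals to translation and to lipid synthesis. CC-223 is an inhibitor of mTOR kinase, and NU7441 an inhibitor of DNA-PK. In prostate cells androgen induces secretory proteins such as the kallikreins and part of lipid metabolism, and glucocorticoids can act on many of the same genes. Genes of sterol and fatty acid synthesis are regulated together by the SREBP transcription factors.

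The 12 libraries held between 30.49 M and 44.86 M counts. Within every group the libraries were more different than counting error allows: chi-square divided by its degrees of freedom was at least 4.49 for each pair. Levels are given below as CPM, counts scaled to library size with TMM factors. The 10 luminal markers summed to 5836 to 7066 CPM in CC-115+Enza, 10566 to 10929 CPM in CC-115, 4071 to 4210 CPM in Enza and 5991 to 6321 CPM in Ctrl libraries, and none of the 10 was at 0 in any library. The 4 basal markers summed to at most 0.306 CPM in any library, and of 12 stromal, immune and endothelial markers PECAM1 was at 0 in all 12 libraries, while their sum reached 9.36 CPM in CC-115+Enza, 6.52 CPM in CC-115, 17.6 CPM in Enza and 7.91 CPM in Ctrl libraries. The 5 neuroendocrine markers summed to between 2.84 and 4.82 CPM in every library. Replicate 1 of CC-115+Enza and replicate 1 of Enza stood apart, with a mean absolute log2 difference to the other libraries of their group of 0.532 and 0.498, against 0.191 to 0.361 for the other 10. The library CC-115+Enza replicate 1 held 22880 genes with at least 10 counts, more than any other of the 12, and 4.779% of its counts were lincRNA. Some results, not all, are therefore also given without both of them. The 2 libraries were picked for their distance in these same data, so leaving them out lowers the spread between replicates. The p-values without them may therefore be too small, and calls gained that way are not independent support.

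For most genes no departure from the sum of the single effects passed the test, and in the fit of all libraries the departures that passed were more often downward. Of 22860 genes tested, 227 (0.993%) lay above additivity and 520 (2.27%) below it (edgeR quasi-likelihood test, adjusted p under 0.05), 3.27% in all. Among protein-coding genes 176 were above and 465 below, of 14120 tested. The median absolute departure of the called genes was 0.90 on the log2 scale for those above and 0.87 for those below, and 98 and 187 of them reached a 2-fold departure. The median interaction over all genes was -0.06. In bulk RNA, fewer cells expressing a gene and less RNA per cell cannot be told apart. Without the 2 libraries that stood apart, 628 genes were above and 797 below, and in a fit of the 12 libraries alone 82 were above and 84 below. No gene was called in the opposite direction in any of the alternatives. The count above additivity fell to 141 without CC-115 replicate 2 and rose to 369 without CC-115+Enza replicate 1 and to 501 without Enza replicate 3. The count below it was 225 to 306 when any library of CC-115 or of Ctrl was left out. The calls were nearly even in number without either of 2 Ctrl libraries: 217 genes were above and 225 below without Ctrl replicate 2, and 219 above and 226 below without Ctrl replicate 3.

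**Figure D1:**
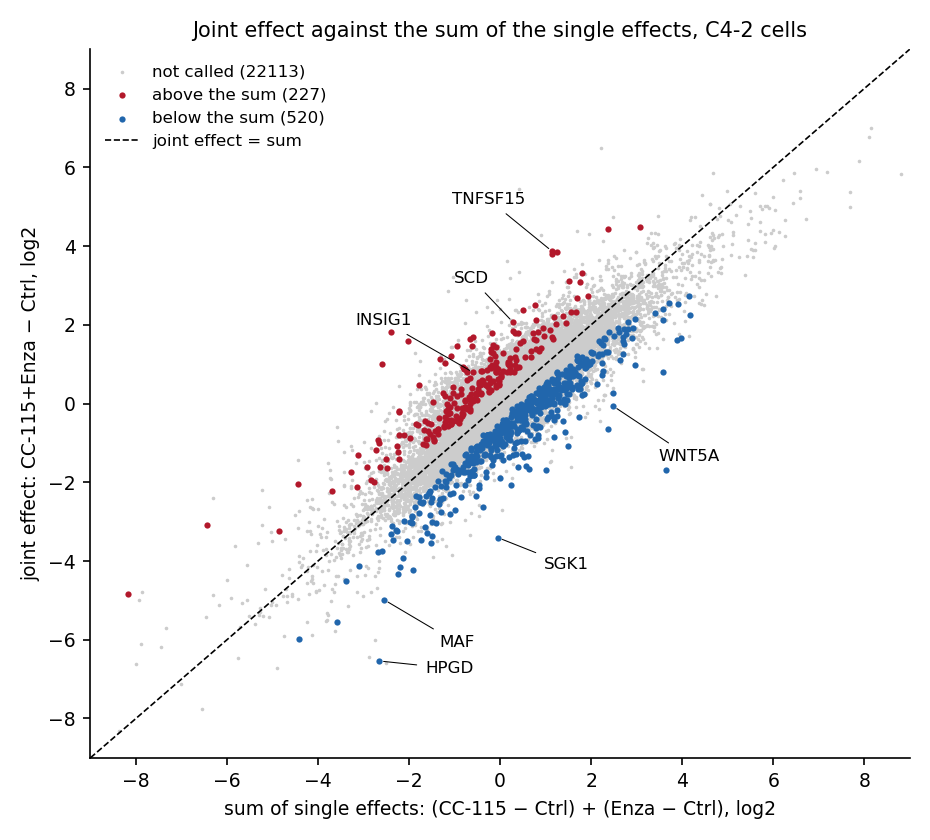
Joint effect of CC-115+Enza against Ctrl (vertical axis, log2) plotted against the sum of the effects of CC-115 and of Enza, each against Ctrl (horizontal axis, log2), for 22860 genes. The dashed line marks additivity, the 227 genes called above it are red and the 520 called below it blue; SCD, TNFSF15 and INSIG1 lie above the line and HPGD, SGK1, WNT5A and MAF below it, and both axes share the Ctrl libraries.

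The called genes can be described by what Enza did with and without CC-115. Of the 227 genes above additivity, 127 were not called for Enza alone and rose when Enza was added to CC-115. In another 39, Enza raised the gene in both settings and by more in the presence of CC-115. Of those that Enza alone lowered, 33 were not called when CC-115 was present, 13 still fell but by less, and 12 rose. Of the 520 genes below additivity, 225 were not called for Enza alone and fell when Enza was added to CC-115, and 110 fell in both settings and further with CC-115. A rise with Enza alone that was not called once CC-115 was present accounted for 131, and 24 rose with Enza alone and fell with Enza on top of CC-115. These counts are sums over tests that share libraries and describe the interaction rather than add evidence for it. For scale, Enza alone raised 9.35% of all genes tested and lowered 6.75%, and Enza added to CC-115 raised 11.7% and lowered 12.2%.

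The clearest group above additivity was lipid synthesis. Of 21 genes of sterol synthesis and uptake, 12 lay above additivity and 0 below, with a median interaction of 0.66 on the log2 scale, against 0.993% of all genes above and a median of -0.06. Of 11 measured fatty acid genes, 5 lay above and 0 below, with a median of 0.64; the count above was 8 without the 2 libraries that stood apart and 3 in the fit of the 12 libraries. The value was above 0 for 20 of the 21 sterol genes and for all 11 fatty acid genes, and CYP51A1 at -0.45 (adjusted p = 0.515) was the exception. The medians of the sterol list were -0.12 for Enza alone and 0.50 for Enza added to CC-115, and those of the fatty acid list were 0.04 and 0.81. Enza alone lowered 4 sterol genes and raised 1, and Enza added to CC-115 raised 13 and lowered 0. Among all genes, Enza alone lowered 6.75% and raised 9.35%, and Enza added to CC-115 raised 11.7% and lowered 12.2%.

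Upstream sequences are printed for the 3 sterol genes with the highest called interactions, INSIG1, MSMO1 and DHCR7, and for SCD, the highest of the fatty acid list, from RefSeq's table of gene starts (build GRCh38.p14). They were chosen after values and motif matches were known, and all 4 hold the motif marked here, whereas the other called fatty acid genes, ACSL1, FADS1, ELOVL6 and FADS2, hold 0 matches in the same window. Each run is the 250 bases before the annotated gene start, read 5′ to 3′ on the strand of the gene, and capitals mark CCAAT on either strand, the motif bound by NF-Y, which is known to work with SREBP at sterol-regulated promoters. The windows are chr7:155297628-155297877 on the plus strand for INSIG1, chr4:165327419-165327668 on the plus strand for MSMO1, chr11:71448394-71448643 on the minus strand for DHCR7 and chr10:100346983-100347232 on the plus strand for SCD.
INSIG1: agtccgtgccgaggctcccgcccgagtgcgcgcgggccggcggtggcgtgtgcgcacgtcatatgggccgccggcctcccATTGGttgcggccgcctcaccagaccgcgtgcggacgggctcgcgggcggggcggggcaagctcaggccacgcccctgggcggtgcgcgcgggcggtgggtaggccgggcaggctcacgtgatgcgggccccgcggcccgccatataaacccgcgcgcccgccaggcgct
MSMO1: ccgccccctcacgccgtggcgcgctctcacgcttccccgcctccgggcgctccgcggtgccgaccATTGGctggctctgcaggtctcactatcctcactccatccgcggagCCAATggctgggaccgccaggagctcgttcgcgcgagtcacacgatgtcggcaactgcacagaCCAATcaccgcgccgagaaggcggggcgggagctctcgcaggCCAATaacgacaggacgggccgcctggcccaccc
DHCR7: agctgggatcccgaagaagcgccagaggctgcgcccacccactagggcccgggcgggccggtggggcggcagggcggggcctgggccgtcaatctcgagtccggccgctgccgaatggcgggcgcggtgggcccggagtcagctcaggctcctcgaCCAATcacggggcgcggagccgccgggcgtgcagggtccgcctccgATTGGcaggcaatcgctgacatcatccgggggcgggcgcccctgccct
SCD: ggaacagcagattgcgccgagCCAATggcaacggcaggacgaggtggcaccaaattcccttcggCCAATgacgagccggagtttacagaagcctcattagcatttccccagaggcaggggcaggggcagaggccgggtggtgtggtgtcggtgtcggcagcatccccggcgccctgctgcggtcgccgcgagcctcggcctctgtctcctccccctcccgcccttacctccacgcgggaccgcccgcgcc
CCAAT was found on either strand in 13 of the 15 sterol promoters in the table (86.7%), in 4 of 10 fatty acid promoters (40%) and in 12 of 29 androgen-induced promoters (41.4%), against 11240 of all 35116 promoters (32%). A strict sterol element, TCACNCCAC, was found on either strand in 1 of the 15 sterol promoters (6.67%), that of SREBF2, and in 0.883% of all promoters. An androgen half-site, AGAACA, was in 2 of 29 androgen-induced promoters (6.9%) and in 12.4% of all. Matches of CCAAT on the 2 strands can share letters, as in the NSDHL promoter, and the shares count promoters with at least 1 match. Sterol genes that were not called also held CCAAT: SC5D, NSDHL, MVD, SREBF2, STARD4 and EBP. It was absent for IDI1, which was called, and for CYP51A1, which was not. Whether the motif goes with the interaction was not tested. A match or its absence in 250 bases describes these letters only.

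SCD, stearoyl-CoA desaturase, which makes monounsaturated fatty acids (ENSG00000099194, hg19 chromosome 10, 102106881 to 102124591, plus strand), had 1806, 2041 and 1661 CPM in CC-115+Enza libraries, 694, 690 and 681 CPM in CC-115, 274, 376 and 366 CPM in Enza and 435, 432 and 447 CPM in Ctrl libraries. The 4 groups did not overlap: the combination was highest, and Enza alone was below Ctrl. Multiplying the 2 fold changes would give 532 CPM, against a measured mean of 1836 CPM. The interaction was 1.79 ± 0.16 (log2, SE; adjusted p = 6.64e-08), and it was 1.67 without the 2 libraries that stood apart. ACSL1, which activates long-chain fatty acids, had 793, 1471 and 1110 CPM in CC-115+Enza libraries and 388 to 448 CPM in the other 9. Neither compound alone moved it past the test, and its interaction was 1.52 ± 0.21 (adjusted p = 6.97e-05). The desaturases FADS1 and FADS2 had interactions of 0.90 (adjusted p = 0.00133) and 0.64 (adjusted p = 0.0116). ELOVL6, a fatty acid elongase, had 0.73 (adjusted p = 0.012, and 0.0705 in the fit of the 12 libraries), although its level was lower in CC-115+Enza libraries (10.3 to 10.6 CPM) than in Enza libraries (21.4 to 28.5 CPM). For FASN, fatty acid synthase, the interaction of 0.66 did not pass (adjusted p = 0.204), and its CPM ranged from 1624 to 2869 in CC-115+Enza libraries and from 546 to 950 in Enza libraries.

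INSIG1, a brake on SREBP processing, had 543, 947 and 682 CPM in CC-115+Enza libraries, 369, 351 and 364 CPM in CC-115, 353, 321 and 292 CPM in Enza and 443, 419 and 395 CPM in Ctrl libraries. Every combination library was above every other library, and the spread within the combination was wide. The interaction was 1.38 ± 0.19 (adjusted p = 6.17e-05) and 1.62 without the 2 libraries that stood apart. DHCR7, a late enzyme of cholesterol synthesis, had 187, 217 and 180 CPM in CC-115+Enza libraries, 104, 111 and 112 CPM in CC-115, 118, 136 and 128 CPM in Enza and 139, 137 and 138 CPM in Ctrl libraries, with an interaction of 0.95 ± 0.13 (adjusted p = 6.97e-05). MSMO1, a sterol oxidase, showed another shape: 59.4, 93.8 and 76.5 CPM in CC-115+Enza libraries, 56.8, 50.3 and 55.5 CPM in CC-115, 44.9, 67.6 and 64.1 CPM in Enza and 90.4, 82.5 and 78.6 CPM in Ctrl libraries. Both compounds lowered it singly, and the combination overlapped Ctrl, so that the interaction of 1.01 (adjusted p = 0.0027) came with a level near that of Ctrl and not above it. SQLE, the squalene epoxidase, had 71.5, 93.8 and 79.3 CPM in CC-115+Enza libraries, 57.9, 54.2 and 58.5 CPM in CC-115, 58.9, 63.7 and 59.3 CPM in Enza and 81.4, 71.3 and 67.5 CPM in Ctrl libraries. The combination overlapped Ctrl and lay above both single treatments, and the interaction was 0.80 ± 0.14 (adjusted p = 0.0013).

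Other called sterol genes were LSS at 0.89, IDI1 at 0.85, HMGCS1 at 0.80, FDFT1 at 0.68, MVK at 0.66 and FDPS at 0.60, each an enzyme of the pathway. Some were close to the threshold, with an adjusted p of 0.0498 for MVK and 0.0399 for both IDI1 and FDPS. For SREBF2, which encodes the SREBP that drives the sterol genes, the value was 0.60 (adjusted p = 0.0672), and for SREBF1, its counterpart for fatty acid genes, 0.57 (adjusted p = 0.129). The sterol count was 16 of 21 without the 2 libraries that stood apart, 5 in the fit of the 12 libraries, 6 without CC-115 replicate 1, 7 without CC-115 replicate 2, CC-115 replicate 3 or Ctrl replicate 1, and 8 with the replicate numbers as a block. Among the genes that lost their calls was LSS, without CC-115 replicate 1 (adjusted p = 0.0573) and in the fit of the 12 libraries (0.164). Its interaction was 1.21 without the 2 libraries that stood apart.

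**Figure D2:**
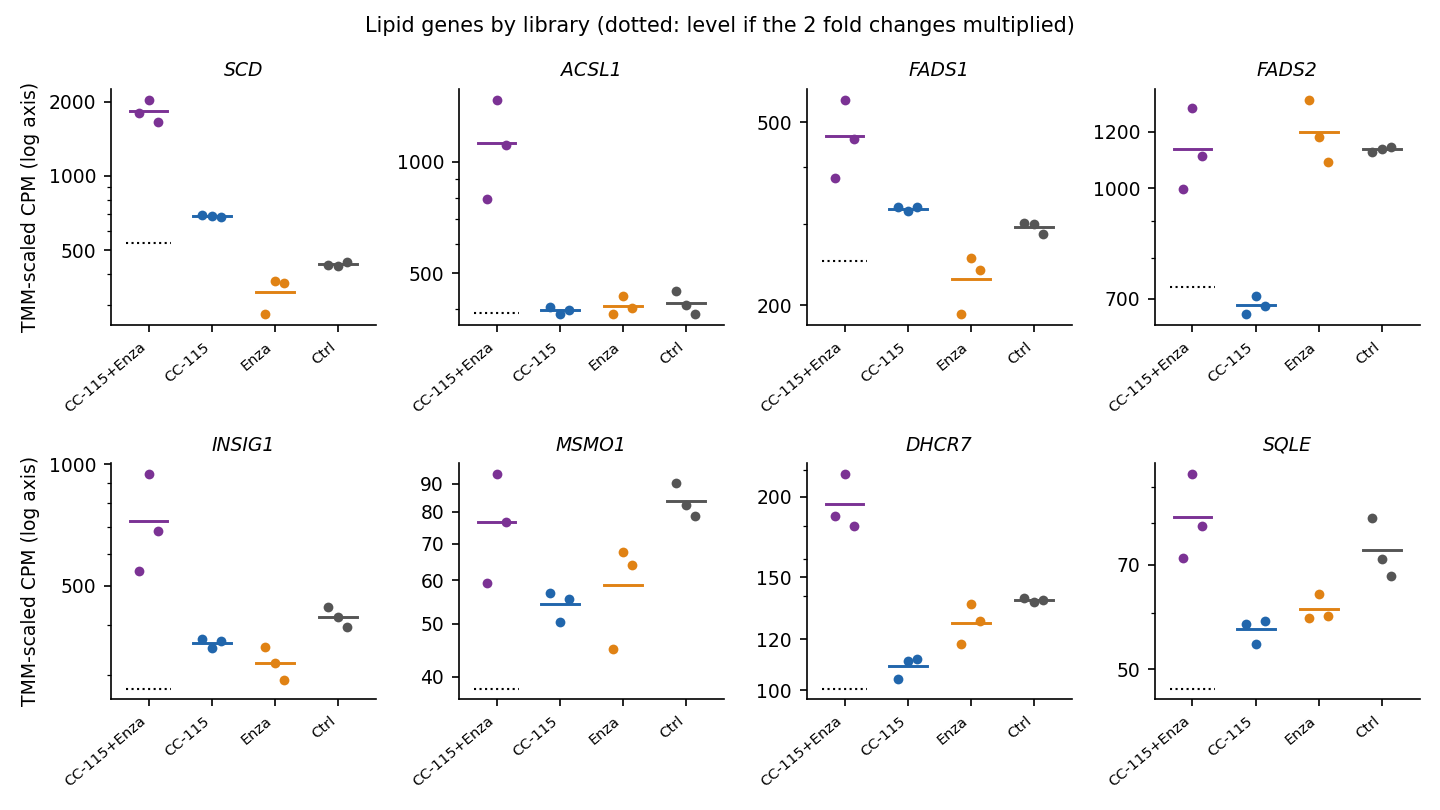
TMM-scaled CPM (log axis) of 8 lipid genes in the 3 libraries of CC-115+Enza, CC-115, Enza and Ctrl; points are libraries, bars group means and the dotted line the level at which the 2 fold changes multiply. SCD, with 1806, 2041 and 1661 CPM in CC-115+Enza, lies above all other groups, whereas SQLE lies above the dotted line and overlaps Ctrl.

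Androgen-induced genes lay below additivity in part: TMPRSS2 was called below it, whereas KLK3 and KLK2 were not called. Most of the 39 measured members fell with Enza: 32 fell with Enza alone (median -1.58), and 37 fell with Enza added to CC-115 (median -1.73). Among all genes, 6.75% fell with Enza alone and 12.2% with Enza added to CC-115. For the interaction, 13 of 39 lay below additivity and 2 above, with a median of -0.36, against 2.27% of all genes below and 0.993% above. The count was 16 below and 3 above without the 2 libraries that stood apart, and 8 below and 1 above in the fit of the 12 libraries. CC-115 alone raised 18 of the 39 and lowered 12, against 27.6% and 26% of all genes (53.6% in either direction).

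MAF, a leucine zipper transcription factor (ENSG00000178573, hg19 chromosome 16, 79619740 to 79634611, minus strand), had 0.467, 0.519 and 0.446 CPM in CC-115+Enza libraries, 25.8, 28.4 and 29.5 CPM in CC-115, 1.43, 1.08 and 1.83 CPM in Enza and 16, 14.3 and 15.3 CPM in Ctrl libraries. The groups did not overlap, and the combination was the lowest although CC-115 alone was the highest. Enza changed it by -3.41 alone and by -5.86 in the presence of CC-115, an interaction of -2.45 ± 0.23 (adjusted p = 1.47e-07). TMPRSS2, a serine protease of the luminal surface, differed in order: 85.7, 94 and 102 CPM in CC-115+Enza libraries, 714, 724 and 747 CPM in CC-115, 77.8, 67.2 and 63.5 CPM in Enza and 250, 240 and 236 CPM in Ctrl libraries. CC-115 raised it 1.59 alone and 0.43 on top of Enza, and the interaction was -1.16 ± 0.16 (adjusted p = 6.17e-05). PMEPA1, an inhibitor of TGF-beta signalling, had 13.4, 10 and 11.7 CPM in CC-115+Enza libraries, 116, 132 and 130 CPM in CC-115, 15.7, 12 and 12.2 CPM in Enza and 63.6, 65.4 and 64.8 CPM in Ctrl libraries. The rise with CC-115 was not called under Enza (-0.18, adjusted p = 0.161), and the interaction was -1.15 (adjusted p = 2.73e-05).

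HPGD, which inactivates prostaglandins, had the most negative interaction of the list at -3.90 ± 0.53 (adjusted p = 4.93e-05), and this value rests on few reads. Its counts were 1, 2 and 1 in CC-115+Enza libraries, 156, 191 and 200 in CC-115, 9, 11 and 10 in Enza and 120, 102 and 100 in Ctrl libraries. The level in CC-115+Enza was 0.612% of that in CC-115, with an exact 95% counting interval of 0.166% to 1.58%, which does not cover the spread between libraries. PGC, progastricsin, was lowered by both compounds and had 13, 6 and 24 counts in CC-115+Enza libraries, with an interaction of -1.55 (adjusted p = 0.00101, and 0.0706 in the fit of the 12 libraries). SORD, sorbitol dehydrogenase, had 93.1, 132 and 144 CPM in CC-115+Enza libraries, 389, 385 and 401 CPM in CC-115, 380, 296 and 272 CPM in Enza and 464, 432 and 429 CPM in Ctrl libraries. The combination was the lowest group by a wide gap, and the interaction was -1.19 (adjusted p = 0.000164). Others below additivity were NDRG1 at -1.05, FKBP5 at -1.03, RAB3B at -0.77, SLC43A1 at -0.74 and PLPP1 at -0.71. IDI1, a sterol enzyme that is also on the androgen list, went above (0.85). HERC3, the other member above, had 91, 93.9 and 79.9 CPM in CC-115+Enza libraries, 150, 140 and 146 CPM in CC-115, 23.9, 25 and 24.3 CPM in Enza and 88.8, 87.9 and 91.4 CPM in Ctrl libraries, an interaction of 1.15 (adjusted p = 1.42e-06).

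For the kallikreins no departure from additivity passed on the log2 scale. KLK3, which encodes prostate-specific antigen, had 1089, 1305 and 1562 CPM in CC-115+Enza libraries, 4382, 4293 and 4434 CPM in CC-115, 694, 643 and 579 CPM in Enza and 2009, 1928 and 1847 CPM in Ctrl libraries. CC-115 more than doubled it with or without Enza, and Enza lowered it by a similar factor with or without CC-115. The interaction was -0.13, with a 95% interval of -0.48 to 0.21 (adjusted p = 0.708). KLK2 had 540, 711 and 797 CPM in CC-115+Enza libraries, 3183, 3189 and 3309 CPM in CC-115, 178, 141 and 125 CPM in Enza and 669, 658 and 646 CPM in Ctrl libraries, with an interaction of -0.09 and an interval of -0.46 to 0.28 (adjusted p = 0.832). The combination overlapped Ctrl for KLK2 and lay below Ctrl for KLK3. The sign of both values was not stable: without the 2 libraries that stood apart they were 0.05 and 0.21. On the linear scale the same means give -1762 CPM for KLK3 and -2035 CPM for KLK2, since the fall with Enza starts from a higher level when CC-115 is present. Of the genes called on the log2 scale, 216 of 227 above and 497 of 520 below had the same sign in CPM. SLC45A3, the prostein gene, changed by -3.34 with Enza alone and by -3.46 on top of CC-115, an interaction of -0.12 (adjusted p = 0.74).

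Of 11 measured genes that androgen represses, Enza alone raised 8 and lowered 1, against 9.35% and 6.75% of all genes. For the interaction, 3 lay above additivity and 1 below, against 0.993% and 2.27% of all genes, with a median of 0.06. BCHE, butyrylcholinesterase, had 20, 20.7 and 23.7 CPM in CC-115+Enza libraries, 7.17, 5.77 and 5.59 CPM in CC-115, 27.5, 31.8 and 30.1 CPM in Enza and 20, 18.8 and 17.9 CPM in Ctrl libraries. CC-115 changed it by -1.61 alone and by -0.47 on top of Enza, and the interaction was 1.14 ± 0.14 (adjusted p = 1.6e-05). MET, the receptor of hepatocyte growth factor, had 1.10 (adjusted p = 0.000189), and CAMK2N1, an inhibitor of calcium/calmodulin kinase, 0.98 (adjusted p = 0.00113). UGT2B11, a glucuronosyltransferase, was the member below (-1.44, adjusted p = 0.000207), and its near-identical relatives make the assignment of its reads uncertain.

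**Figure D3:**
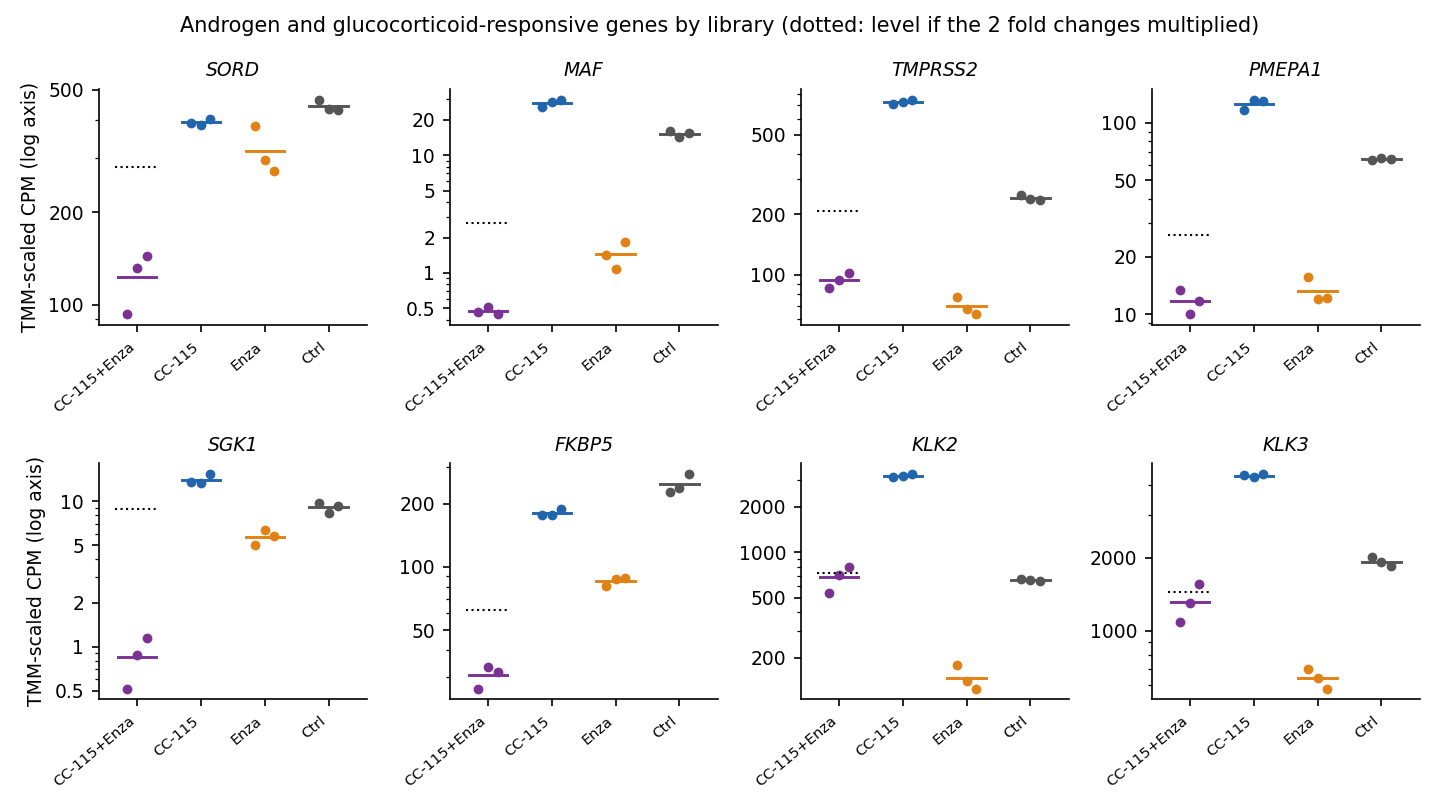
TMM-scaled CPM (log axis) of 8 androgen or glucocorticoid-responsive genes in the 3 libraries of CC-115+Enza, CC-115, Enza and Ctrl; points are libraries, bars group means and the dotted line the level at which the 2 fold changes multiply. SORD, MAF, TMPRSS2, PMEPA1, SGK1 and FKBP5 lie below the dotted line in CC-115+Enza, while KLK2 and KLK3 lie around it.

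Glucocorticoid-responsive genes had the lowest median of any list with more than 4 measured members, at -0.92, with 7 of 11 below additivity and 0 above, against 2.27% and 0.993% of all genes. SGK1, a kinase named for its induction by serum and glucocorticoid (ENSG00000118515, hg19 chromosome 6, 134490384 to 134639250, minus strand), had 0.516, 0.873 and 1.15 CPM in CC-115+Enza libraries, 13.5, 13.4 and 15.4 CPM in CC-115, 4.99, 6.3 and 5.81 CPM in Enza and 9.66, 8.33 and 9.27 CPM in Ctrl libraries. The groups did not overlap, and CC-115 raised the gene alone (0.63) and lowered it on top of Enza (-2.73). The interaction was -3.37 ± 0.24 (adjusted p = 9.62e-10). FKBP5, a co-chaperone of steroid receptors, had 26.3, 33.5 and 31.5 CPM in CC-115+Enza libraries, 176, 176 and 188 CPM in CC-115, 80.8, 87.6 and 88.5 CPM in Enza and 228, 237 and 277 CPM in Ctrl libraries. The other members below additivity were CEBPD and MT2A at -1.24, MT1X at -0.94, SLC22A3 at -0.92 and KLF9 at -0.48. The metallothioneins MT2A and MT1X share reads with close relatives and are uncertain, and MT2A lost its call in the fit of the 12 libraries (adjusted p = 0.132). Without the 2 libraries that stood apart, the interaction of MT2A was -0.74. TSC22D3 and ZBTB16, which are also induced by glucocorticoids, had -0.03 and 0.07. PER1 and DUSP1, the remaining members, lay on the other side of 0 and were not called. Their values were 0.54 (95% interval 0.08 to 0.99) and 0.36 (95% interval -0.02 to 0.74). The count below additivity was 7, with 2 above, without the 2 libraries that stood apart, 4 in the fit of the 12 libraries and 5 to 7 when any single library was left out. FKBP5 stands on the androgen list too, and NR3C1, the glucocorticoid receptor gene, did not pass the filter on low counts.

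Other signalling genes departed singly. TNFSF15, a cytokine of the TNF superfamily (ENSG00000181634, hg19 chromosome 9, 117546915 to 117568406, minus strand), had 92, 107 and 101 CPM in CC-115+Enza libraries, 11, 10.1 and 10.6 CPM in CC-115, 9.17, 10.5 and 9.64 CPM in Enza and 7.13, 6.47 and 6.93 CPM in Ctrl libraries. Each compound alone gave a small rise and the combination a level far above all others, and the interaction of 2.73 ± 0.13 (adjusted p = 2.3e-13) was the highest among the named genes. BACE2, an aspartyl protease, had 15.9, 32.4 and 17 CPM in CC-115+Enza libraries against 0.915 to 3.7 CPM in the other 9, and an interaction of 2.07 (adjusted p = 0.000743). WWTR1, the transcriptional co-activator TAZ, had 1.52, 1.58 and 1.1 CPM in CC-115+Enza libraries, 2.94, 3.54 and 4.08 CPM in CC-115, 0.272, 0.342 and 0.553 CPM in Enza and 4.09, 2.68 and 3.59 CPM in Ctrl libraries. Enza changed it by -3.15 alone and by -1.33 on top of CC-115, an interaction of 1.82 (adjusted p = 0.00161).

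S1PR3, a receptor for sphingosine 1-phosphate, reached 1.67, APCDD1, a Wnt inhibitor, 1.60, ARHGAP42, a GTPase-activating protein, 1.58 and GUCY1A2, a subunit of guanylate cyclase, 1.51. For S1PR3 the fall with CC-115 was smaller under Enza, with 13.7 to 14.7 CPM in CC-115+Enza libraries, 3.62 to 4.38 CPM in CC-115, 28.7 to 32.6 CPM in Enza and 27.5 to 28.9 CPM in Ctrl libraries. For GUCY1A2 the fall with Enza was not called once CC-115 was present, with 11.6 to 12.6 CPM in CC-115+Enza libraries, 11.7 to 13.3 CPM in CC-115, 1.49 to 2.85 CPM in Enza and 6.46 to 7.55 CPM in Ctrl libraries. FOXN4, CNKSR3 and FLVCR2 completed the 12 highest named at 1.53, 1.48 and 1.44, and FOXN4 lost its call in the fit of the 12 libraries (adjusted p = 0.0847).

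WNT5A, a Wnt ligand (ENSG00000114251, hg19 chromosome 3, 55499743 to 55523973, minus strand), had 7.81, 4.58 and 6.52 CPM in CC-115+Enza libraries, 9.28, 9.29 and 8.93 CPM in CC-115, 26.8, 25.3 and 28.8 CPM in Enza and 6.35, 7 and 6.52 CPM in Ctrl libraries. Enza alone raised it by 2.02, the combination overlapped Ctrl, and the interaction was -2.56 ± 0.18 (adjusted p = 9.62e-10). GC, the vitamin D-binding protein, also rose with Enza alone, and had 0.638, 0.967 and 1.02 CPM in CC-115+Enza libraries, 0.382, 0.295 and 0.61 CPM in CC-115, 14.4, 20.2 and 18.9 CPM in Enza and 1.82, 2.24 and 2.67 CPM in Ctrl libraries, an interaction of -1.96 (adjusted p = 0.00103). JAG1, a Notch ligand, had 7.02, 5.35 and 7.5 CPM in CC-115+Enza libraries, 37.2, 41 and 40.7 CPM in CC-115, 14, 13.6 and 13.7 CPM in Enza and 20.7, 20.1 and 20.5 CPM in Ctrl libraries. CC-115 raised it alone and lowered it on top of Enza, and the interaction was -2.01 ± 0.15 (adjusted p = 1.36e-09). OTULINL had -2.29, TMTC1 -2.15, TNFAIP8 -1.95, SPAG17 -1.84 and MBNL2, a splicing regulator, -1.75. TNFAIP8 was among the genes whose sign differed on the linear scale (1.32 CPM). So were FKBP5 (12.1 CPM) and PGC (10.9 CPM), which lay below additivity on the log2 scale. The same held for CAMK2N1 (-2.95 CPM) and ELOVL6 (-0.88 CPM), which lay above it.

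In the Wnt list, 2 of 14 measured members lay above additivity and 1 below, against 0.993% and 2.27% of all genes, with a median of -0.04. RNF43, a membrane E3 ligase that removes Wnt receptors, had 1.22 (adjusted p = 1.98e-05), and LGR4, a receptor for R-spondins, 0.60 (adjusted p = 0.0198, and 0.164 in the fit of the 12 libraries, 0.0554 without CC-115 replicate 2, 0.0511 without CC-115 replicate 3 and 0.0506 without Ctrl replicate 1).

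Genes of the cell cycle fell with CC-115, with and without Enza, and few departed from additivity. Of 37 genes of DNA replication, 36 fell with CC-115 alone (median -2.70) and 36 fell with CC-115 added to Enza (median -2.66), against 26% and 30.2% of all genes lowered (58.7% of all genes changed in either direction when CC-115 was added to Enza). For the interaction 1 of the 37 was above and 0 below, against 0.993% and 2.27% of all genes, and the median was 0.01; without the 2 libraries that stood apart 4 were above and the median was 0.32. The member above was CCNE2, cyclin E2, with 13.3, 15 and 13.4 CPM in CC-115+Enza libraries, 8.4, 8.06 and 7.95 CPM in CC-115, 34.7, 59.1 and 56.8 CPM in Enza and 66.9, 58.9 and 54.5 CPM in Ctrl libraries, and an interaction of 1.03 (adjusted p = 0.0021). By the edgeR test no member was called among 28 genes of mitosis (median -0.01), 11 replication-dependent histones (-0.26), 17 genes of homologous recombination (0.18) and 12 of DNA-PK and end joining (-0.18). PRKDC had 758, 915 and 824 CPM in CC-115+Enza libraries, 763, 752 and 757 CPM in CC-115, 1012, 941 and 1060 CPM in Enza and 1099, 1095 and 1119 CPM in Ctrl libraries. CC-115 lowered it, and its interaction of 0.27 did not pass (adjusted p = 0.336), although it did without the 2 libraries that stood apart (0.34, adjusted p = 0.0367).

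Among 16 kinases of the DNA-PK family and subunits of the TOR complexes, 2 lay below additivity and 1 above, against 2.27% and 0.993% of all genes. MTOR had 158, 207 and 176 CPM in CC-115+Enza libraries, 336, 358 and 376 CPM in CC-115, 172, 149 and 150 CPM in Enza and 193, 200 and 197 CPM in Ctrl libraries. CC-115 raised it by 0.86 alone, while on top of Enza the change of 0.20 did not pass (adjusted p = 0.0751), and the interaction was -0.66 ± 0.14 (adjusted p = 0.00563, and 0.173 in the fit of the 12 libraries). DEPTOR, an inhibitor of TOR complexes, had -0.71 (adjusted p = 0.00748, and 0.153 in the fit of the 12 libraries, 0.0555 without Ctrl replicate 2 and 0.0664 without Ctrl replicate 3). SMG1, a kinase of nonsense-mediated decay, had 0.59 (adjusted p = 0.0338), a call that 7 of the alternatives ended, and its reads can be shared with copies of the gene elsewhere.

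In the remaining lists few members were called, where 0.993% of all genes lay above additivity and 2.27% below. The list of ATF4 and amino acid supply had 3 of 27 below additivity and a median of -0.38: ALDH1L2 at -0.81, and the amino acid transporters SLC1A4 at -0.79 and SLC1A5 at -0.56. The FOXO list had 1 of 14 above and 2 below, the p53 list 1 of 20 above (TP53INP1, 1.15) and 1 below (PLK2, -0.75), the glycolysis and hypoxia list 1 of 14 above (EGLN3, a prolyl hydroxylase, 1.02) and the lysosome list 1 of 20 above (NPC1, the cholesterol exporter of lysosomes, 0.54). The FOXO members were CCNG2 at 0.46, SESN3 at -0.91 and CITED2 at -0.74. Of the epithelial and mesenchymal markers 1 of 9 was below (SNAI1, -1.13), and of the luminal identity genes 1 of 12. Calls were 0 among 19 genes of ribosome biogenesis, 18 of translation, 19 of nuclear oxidative phosphorylation, 16 of the interferon response, 4 neuroendocrine, 4 stromal, immune or endothelial and 2 basal markers, with medians of -0.02, -0.26, -0.26, -0.22, -0.38, -0.26 and -0.97. These lists depended on the 2 libraries that stood apart: without them 11 of the 19 genes of ribosome biogenesis lay above additivity, 4 of the p53 list above and 3 below, 4 of the lysosome list below and 4 of the luminal identity genes below. The calls of SLC1A5, ALDH1L2, PLK2, CCNG2, SESN3, CITED2, NPC1 and SNAI1 were lost in the fit of the 12 libraries, and those of SLC1A5, PLK2, CCNG2, CITED2, NPC1 and SNAI1 also when a single library was left out.

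**Figure D4:**
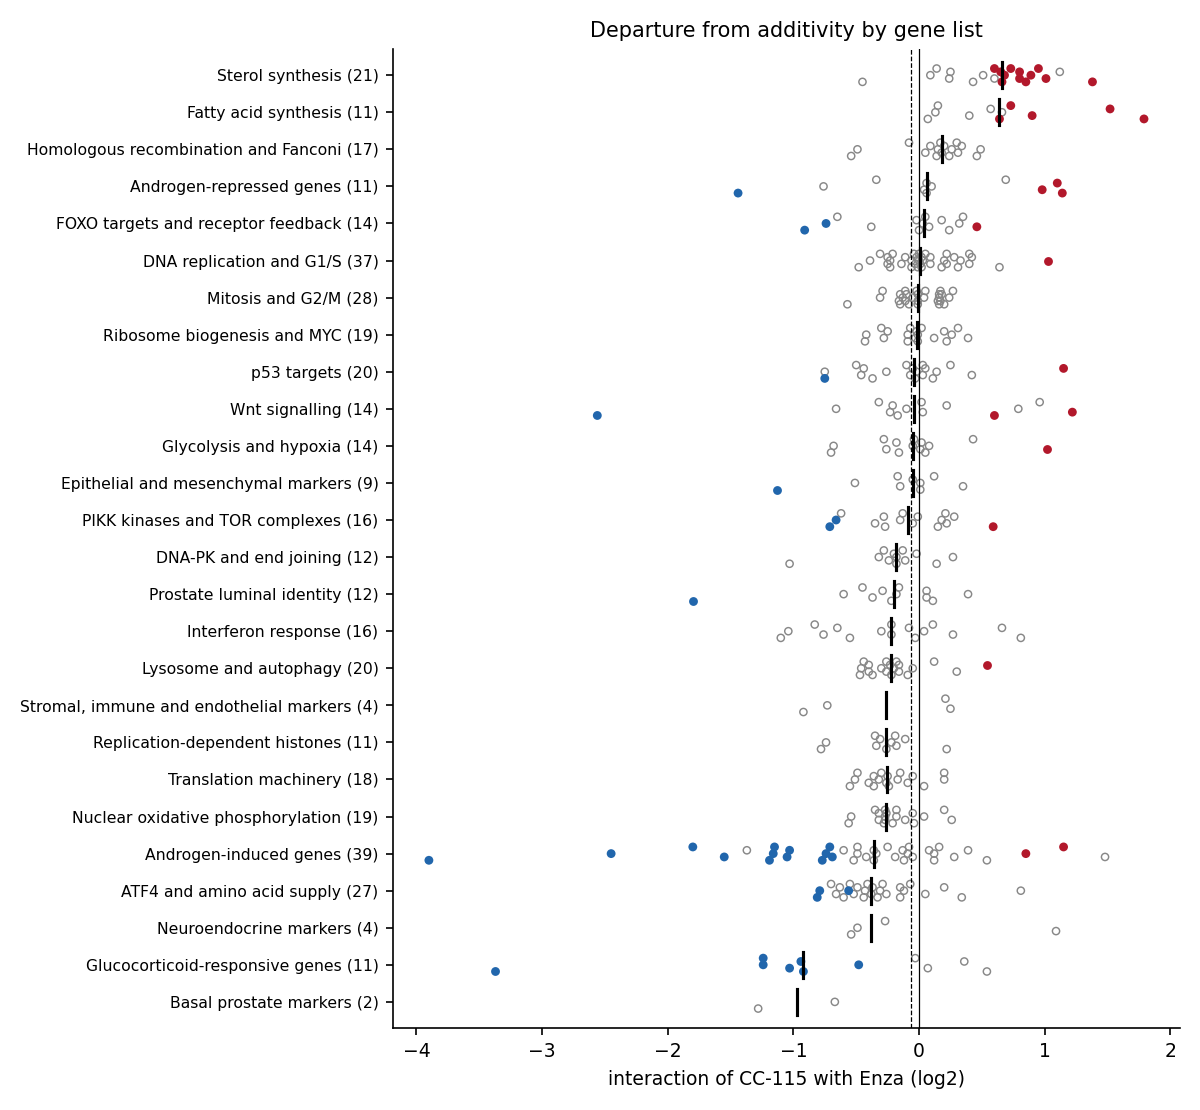
Interaction of CC-115 with Enza (log2) for the measured members of 26 gene lists, with the number measured in brackets; filled points are members called above (red) or below (blue) additivity, open points are not called, black bars are list medians and the dashed line is the median of all genes. Sterol synthesis (median 0.66) and fatty acid synthesis (0.64) stand at the top, and glucocorticoid-responsive genes (-0.92) near the bottom.

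The interaction was then compared directly with those of the other inhibitors, by testing the Enza effect in the presence of CC-115 against the Enza effect in the presence of CC-223 or of NU7441. The Ctrl and Enza libraries cancel from these tests, but the CC-115 libraries enter both. Against CC-223, 207 genes (0.906%) were higher and 225 (0.984%) lower with CC-115, 1.89% in all. Against NU7441, 277 (1.21%) were higher and 385 (1.68%) lower, 2.9% in all. Taken alone, the interaction of CC-223 with Enza had 29 genes above additivity (0.127%) and 57 below (0.249%). The interaction of NU7441 had 0 in either direction by the edgeR quasi-likelihood test (0%), with 1548 genes at an unadjusted p under 0.05, and no other tool was run on it. Without the 2 libraries that stood apart, the direct test gave 600 higher and 624 lower against CC-223, and 640 higher and 952 lower against NU7441.

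Many of the lipid genes had a higher interaction with CC-115 than with either other inhibitor. Of the 21 sterol genes, 12 were higher and 0 lower in the test against CC-223, and again 12 and 0 in the test against NU7441, with median differences of 0.82 and 0.78, and medians of -0.18 for the interaction of CC-223 and -0.04 for that of NU7441. Of the 11 fatty acid genes, 6 were higher and 0 lower in each test. SCD had 261, 258 and 260 CPM in CC-223+Enza libraries and 286, 303 and 302 CPM in CC-223 libraries. With NU7441 it had 496, 496 and 460 CPM in NU7441+Enza libraries and 555, 672 and 578 CPM in NU7441 libraries. In both settings every library with Enza was below every library without it, the reverse of the order seen with CC-115. The differences of the SCD interactions were 1.61 (adjusted p = 8.69e-07) and 1.73 (adjusted p = 9.84e-08). For INSIG1 they were 1.54 (adjusted p = 2.34e-05) against CC-223 and 1.33 (adjusted p = 9.06e-05) against NU7441. FASN and SREBF1, which did not pass for the interaction itself, differed from CC-223 by 1.45 (adjusted p = 0.00316) and 1.13 (adjusted p = 0.00209).

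Among hormone-regulated genes the difference from CC-223 passed for some and not for others. TMPRSS2 was below additivity with CC-223 too (-0.92, adjusted p = 0.00347), and the difference of -0.23 had a 95% interval of -0.57 to 0.11. FKBP5 had -1.39 with CC-223 (adjusted p = 0.000323), and the difference of 0.35 had an interval of -0.06 to 0.77. BCHE had 1.14 with CC-115 and 1.13 with CC-223, a difference of 0.01 (adjusted p = 0.974). NDRG1, a stress-responsive gene, had -1.05 with CC-115 and -1.67 with CC-223, a difference of 0.63 (adjusted p = 0.0399). Over the 39 androgen-induced genes 5 were higher and 5 lower with CC-115 than with CC-223, against 0.906% and 0.984% of all genes. In the test against NU7441, 2 were higher and 15 lower, against 1.21% and 1.68% of all genes.

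For SGK1 and MAF the difference passed against both inhibitors. SGK1 had 2.69, 3.23 and 3.39 CPM in CC-223+Enza libraries and 23.3, 20.4 and 19.5 CPM in CC-223 libraries, an interaction of -2.09 (adjusted p = 4.27e-06). The difference of CC-115 from CC-223 was -1.27 (adjusted p = 0.00316). With NU7441 SGK1 had 5.8, 6.04 and 5.92 CPM in NU7441+Enza libraries and 8.91, 6.32 and 8.43 CPM in NU7441 libraries, and the difference was -3.62 (adjusted p = 1.9e-10). For MAF the difference was -1.05 from CC-223 (adjusted p = 0.00867) and -2.83 from NU7441 (adjusted p = 5.68e-09). Of the 11 glucocorticoid-responsive genes, 5 were lower and 1 higher than with CC-223, and 5 lower and 0 higher than with NU7441. All-gene shares were 0.984% lower and 0.906% higher against CC-223, and 1.68% lower and 1.21% higher against NU7441.

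The largest single differences from CC-223 were TNFSF15 (2.19), WWTR1 (2.08), LIPG, an endothelial lipase (1.78), and RAPH1 (1.68) on the higher side, and HPGD (-2.54), ACTRT3 (-2.32), TMTC1 (-2.06) and NAV3 (-2.01) on the lower side. For HPGD the call was lost without CC-115+Enza replicate 1 (adjusted p = 0.0544) and without CC-223+Enza replicate 3 (adjusted p = 0.0906). Against NU7441 they were BACE2 (2.53), TNFSF15 (2.48), GLP1R, the receptor of glucagon-like peptide (2.02), and PTPRB, a receptor phosphatase (2.01), and HPGD (-4.12), SGK1 (-3.62), MAF (-2.83) and TNFAIP8 (-2.49). GLP1R was not called for the interaction of CC-115 (0.96, adjusted p = 0.11) or of NU7441 (-1.07, adjusted p = 0.692). Its CC-115 interaction was 0.53 without the 2 libraries that stood apart. TNFSF15 had 7.9, 7.93 and 8.15 CPM in CC-223+Enza libraries and 3.94, 3.61 and 3.98 CPM in CC-223 libraries, and 7.75, 8.05 and 8.38 CPM in NU7441+Enza libraries and 4.51, 4.87 and 4.89 CPM in NU7441 libraries, so that the level near 100 CPM was seen with CC-115+Enza alone among these groups. For the kallikreins the difference from CC-223 was -0.20 for KLK3 (interval -0.54 to 0.14) and -0.11 for KLK2 (interval -0.48 to 0.26). The difference from NU7441 was 0.21 for KLK3 and 0.38 for KLK2, neither of which passed (adjusted p = 0.52 and 0.276). Without the 2 libraries that stood apart both passed, at 0.33 (adjusted p = 0.0201) and 0.52 (adjusted p = 2.25e-05). These p-values may be too small, since the libraries left out were the most distant ones. The SE for KLK2 was 0.17 with them and 0.08 without.

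**Figure D5:**
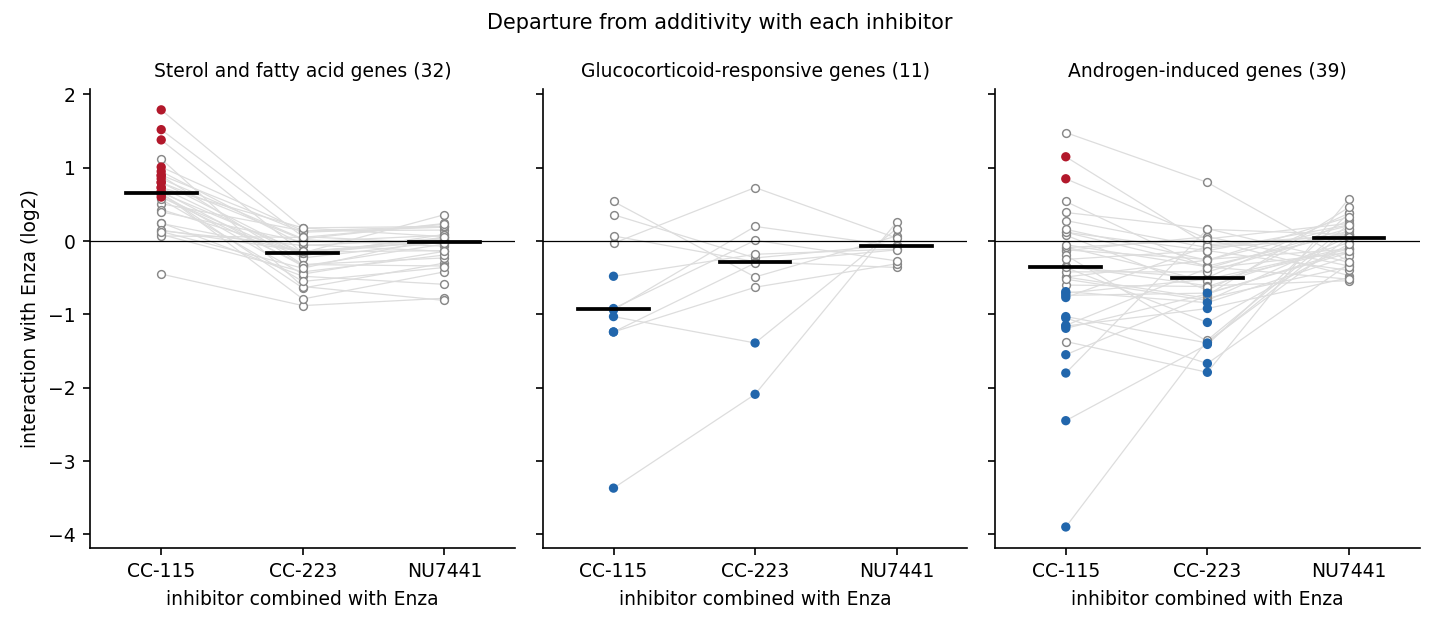
Interaction with Enza (log2) of CC-115, CC-223 and NU7441 for 32 sterol and fatty acid genes, 11 glucocorticoid-responsive genes and 39 androgen-induced genes; each point is a gene, grey lines join a gene's 3 values, filled points passed the test (red above, blue below additivity) and black bars are medians. The 3 interactions share the Ctrl and Enza libraries; filled lipid genes appear with CC-115 and with neither other inhibitor, while the androgen-induced genes have filled points below 0 with CC-115 and CC-223.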

How the data were processed

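Total RNA of C4-2 cells was sequenced with a stranded kit, per the labels' protocols. The authors deposited a table of whole-number read counts per gene, not normalized; the submitters' processing notes name hg19, STAR 2.5.2a, featureCounts 1.5.0-p3 and DESeq2 1.14.1. Whether counting used the strand is not given in the sources used here. A name could be given to 52526 of the 63677 features, which together took up 91.1% to 97.0% of each library.

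The deposited counts of all 24 C4-2 libraries (29.58 M to 44.86 M counts) were fitted with edgeR 4.0.16 (R 4.3.3, filterByExpr, TMM, robust quasi-likelihood, 1 coefficient for each of 8 groups). Every p is from its quasi-likelihood test with Benjamini-Hochberg adjustment at 0.05, over 22860 genes in this main fit. The alternatives adjusted over the genes that each tested, 21899 in the fit of the 12 libraries and 23108 without the 2 libraries that stood apart. An SE is the absolute log2 value divided by the square root of F, and 95% intervals use 16 residual degrees of freedom. In simulated counts the test recovered 13.4%, 80.6% and 100% of 1.5-, 2- and 4-fold interactions and called 6 of 22316 unchanged genes. The simulation gave all 8 groups the same spread for a gene and held no library that stood apart. In the data the groups were unequally spread and 2 libraries of this contrast stood apart, so these rates need not hold for it. DESeq2 1.42.0, other scaling, filters, library sets and a replicate block were alternatives. Motifs were searched on both strands of the 250 bases before RefSeq gene starts (GRCh38.p14), whereas gene positions are hg19 as in the deposited table.

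The members, gene lists and tests were chosen with earlier results of these data known. Named by rule were fixed genes (KLK3, KLK2, TMPRSS2, PRKDC, MTOR), the 12 highest and 12 lowest called protein-coding interactions with average log2 CPM of at least 1 that kept their sign when any library was left out, up to 4 called members of a list and the 4 highest and 4 lowest differences; other members of the 26 lists (460 distinct genes) were named after their values were seen. Some genes that the rule names are not reported here. The numbers of the replicates did not pair the libraries (see the effect of a block among the alternatives).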

Additional observations from a re-analysis of the deposited data

Results flagged for a closer look

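The interaction is itself a difference between the Enza effect with and without CC-115, and 227 genes were higher and 520 lower by that test. The Enza effect also differed between inhibitors, with 207 genes higher and 225 lower with CC-115 than with CC-223, and 277 higher and 385 lower than with NU7441. Among the named genes the differences from CC-223 (log2) were 2.19 for TNFSF15, 2.08 for WWTR1, 1.78 for LIPG, 1.68 for RAPH1, -2.54 for HPGD, -2.32 for ACTRT3, -2.06 for TMTC1 and -2.01 for NAV3. The differences from NU7441 were 2.53 for BACE2, 2.48 for TNFSF15, 2.02 for GLP1R, 2.01 for PTPRB, -4.12 for HPGD, -3.62 for SGK1, -2.83 for MAF and -2.49 for TNFAIP8. All of these are tests of the difference itself in the fit across all genes. For HPGD the level in CC-115+Enza libraries rests on 1, 2 and 1 counts.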

How the results depend on the processing

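Without Enza replicate 1 and CC-115+Enza replicate 1, the interaction had 628 genes higher and 797 lower, the difference from CC-223 had 600 and 624, and the difference from NU7441 had 640 and 952. These libraries were left out for their distance from their groups, which lowers the spread, so the p-values may be too small. In the fit of the 12 libraries the interaction had 82 higher and 84 lower, a fit with fewer residual degrees of freedom. The fit of all libraries shares 1 estimate of spread over 8 groups that were not equally spread. Chi-square per degree of freedom between replicates reached 220.7 in Enza and 132.81 in CC-115+Enza. It was at most 54.45 in Ctrl, 28.02 in NU7441 and 15.07 in the CC-115, CC-223, CC-223+Enza and NU7441+Enza groups. The p-values of the all-library fit depend on the shared estimate, and its part in the difference in counts was not tested. Higher calls of the interaction numbered 366 with DESeq2, 347 with no filter and 382 with the stricter filter. With no filter, 401 genes were higher than with CC-223 and 490 higher than with NU7441, and DESeq2 called 355 lower than with CC-223; the cause was not tested. Leaving out single libraries gave 141 to 501 higher and 225 to 749 lower for the interaction, 113 to 367 and 122 to 433 for the difference from CC-223, and 173 to 507 and 224 to 585 for that from NU7441. Of all calls of the interaction 30.4% were higher, against 49.4% in the fit of the 12 libraries.

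With the replicate number as a block, the interaction had 179 higher and 398 lower, the difference from CC-223 164 and 180, and that from NU7441 224 and 315. Same-numbered libraries had correlations of deviations between -0.342 and 0.0937, and 0 of 12 libraries correlated best with their own number, so the numbers do not pair them.

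Signs turned for values that did not pass. Without both libraries the interaction was 0.05 for KLK3 and 0.21 for KLK2. For KLK2 it was 0.05 without CC-115+Enza replicate 1 and 0.09 without Enza replicate 1. Without CC-115+Enza replicate 1, and without both libraries, the difference from CC-223 was 0.04 for KLK2. Over single omissions the interaction ranged from -0.26 to -0.01 for KLK3 and from -0.20 to 0.09 for KLK2, and the difference from CC-223 from -0.26 to 0.04 for KLK2. The difference of MTOR and TMPRSS2 from NU7441 passed, but lost its call under 9 alternatives each. The self-test recovered few interactions of 1.5-fold, so genes that were not called may still depart by such amounts.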
